A study of Mus musculus with 9 samples.

Results

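Peg3 and 9 other genes of the imprinted gene network were followed in the livers of mice fed diets of 3 iron contents. The 10 members (Peg3, Igf2, H19, Dlk1, Meg3, Grb10, Cdkn1c, Plagl1, Mest and Ndn) were taken by gene symbol from a table of 23420 genes, and all 10 were found in it. Peg3 was picked because its level on high iron differed from that on the sufficient diet, so its values in comparisons with the high-iron diet, and whether it passed a threshold there, are given as a description and support nothing. The other 9 members were picked as imprinted genes, to see whether Peg3 moved alone.

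The 9 mice were wild-type C57BL/6 males, 3 per diet. All were moved at 5 weeks of age to the purified, soy-free AIN-93G feed and killed after 50 days, with livers taken at 12 weeks. The low-iron diet held 2.5, the sufficient diet 37.5 and the high-iron diet 1000 mg iron per kg, and no other agent separated the groups. Whole-liver RNA gave 1 library per mouse, which carries the replicate number of its title. In whole liver, fewer cells of a type and less RNA per cell cannot be told apart. The mice are of 1 inbred strain and the counts carry no allele, so imprinting itself was not measured.

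Imprinted genes are expressed mainly from the copy inherited from 1 parent, because the copies differ in DNA methylation from the germ line on. Many are active in fetal growth and are lowered together after birth, which is why they are described as a network. Peg3 encodes a large Krüppel-type zinc finger protein and is expressed from the paternal copy. In adult liver most members of the network are known to be low.

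Peg3 starts head to head with its neighbour Usp29, a ubiquitin protease gene that is also paternally expressed. The DNA between the starts of these genes is shown because it is upstream of both. It spans 163 bases at chr7:6730420-6730582 (GRCm38.p6, RefSeq, the strand of Peg3) and is printed 5′ to 3′ with its 5 CpG dinucleotides in capitals.
Peg3 to Usp29: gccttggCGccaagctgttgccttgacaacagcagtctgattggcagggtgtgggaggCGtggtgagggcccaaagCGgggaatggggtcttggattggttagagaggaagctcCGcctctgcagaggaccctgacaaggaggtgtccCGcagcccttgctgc
This stretch is 62% G and C. On either strand it holds 1 match to GGCGCC, a GC-rich sequence known from BMP-SMAD target genes, and 0 matches to GCCATNTT (the core of YY1 sites) or TGACNNNGC (the core of antioxidant response elements). Of 32851 promoter windows of 300 bases (250 before and 50 after a start), 11.9% held GGCGCC, 6.05% GCCATNTT and 12.4% TGACNNNGC. These windows are longer than the stretch of 163 bases. The Peg3 window of 300 bases, to which the shares apply, held 1 match to GGCGCC, 0 to GCCATNTT and 0 to TGACNNNGC. A match is a description, not a binding site. Sites outside the bases searched, such as further within the Peg3 gene, would not be seen. The windows of Peg3 and Usp29 share 263 bases. Over the full window Peg3 had 13 CpG, and 37.9% of promoter windows had at least as many.

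Usp29 had 0 to 2 reads in every library, while Peg3 had 28 to 342. Zim1, a maternally expressed gene of the same domain, had 0 or 1 read in every library, and Zim3 had 0 reads in all 9. Peg3 was therefore the only one of these 4 neighbouring genes with enough reads for a test. Apeg3, which runs antisense to Peg3, was not analysed here. The strand setting of the counts is not given, so reads of Peg3 and of its antisense transcript cannot be told apart.

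Gene reads ranged from 22 M to 33.8 M per library (M, mega). Reads of the ribosomal precursor gene Rn45s made up 43.7% in low-iron replicate 1, 40.5% in high-iron replicate 12 and at most 23.8% elsewhere. A level of 1 CPM (counts per M reads, with library sizes scaled by TMM) stood for 12.8 reads in low-iron replicate 1 and for 43.5 reads in sufficient-iron replicate 6. Hepatocyte markers were present in all libraries, with summed levels of 54800 to 81100 CPM. Of the 10 members, 8 passed the filter on low counts and were tested among 13020 genes, while H19 and Dlk1 did not pass.

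Peg3 was the member whose level followed the iron content of the diet, with the lowest values on low iron and the highest on high iron. In low-iron livers Peg3 stood at 2.18 (replicate 1), 2.30 (replicate 5) and 1.52 CPM (replicate 9). In sufficient-iron livers it stood at 3.28 (replicate 2), 4.26 (replicate 6) and 3.56 CPM (replicate 10), and in high-iron livers at 6.96 (replicate 4), 10.8 (replicate 8) and 9.56 CPM (replicate 12). The 3 diets did not overlap at any step. Groups lay apart upward between sufficient and high iron for 8.99% of tested genes and between low and high iron for 7.59%, and downward between sufficient and low iron for 7.83%. The means were 2.00 ± 0.425, 3.70 ± 0.504 and 9.09 ± 1.94 CPM (SD, n = 3 per diet).

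**Figure D1:**
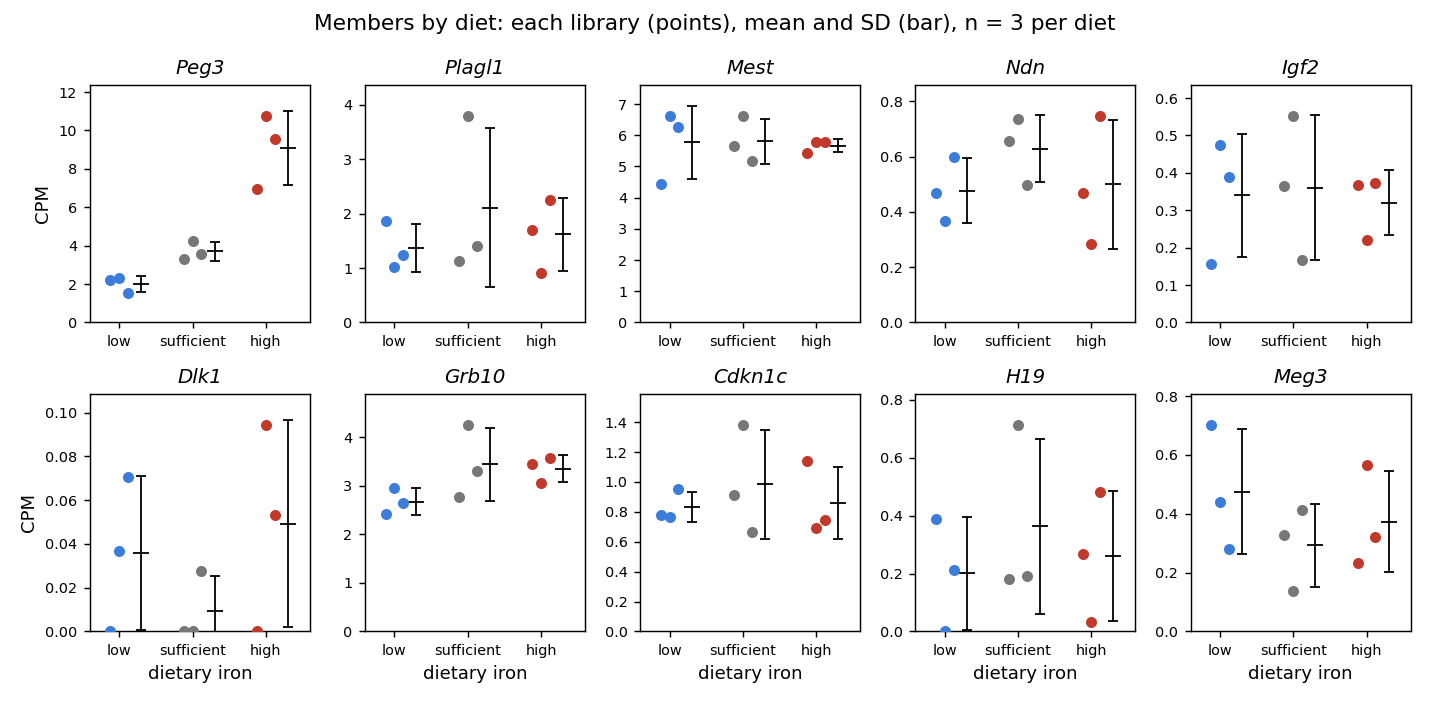
Levels of the 10 members in CPM (y axis, 1 scale per gene) by dietary iron (x axis); points are libraries, and the bar gives mean and SD of 3 libraries, with bars that pass below 0 not drawn there. Peg3 separates the 3 diets, at means of 2.00, 3.70 and 9.09 CPM, while the other members overlap between diets except Grb10 between low and high iron.

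Reads behind these values were few, so counting error was computed for each library. The exact Poisson 95% interval of Peg3 was 1.45 to 3.16 CPM in low-iron replicate 1 (28 reads), the widest relative to its value, and 9.65 to 12 CPM in high-iron replicate 8 (342 reads). These intervals cover counting error only. Those of all 3 high-iron libraries, from 6.04 CPM up, lay above those of all 3 sufficient-iron libraries, up to 4.92 CPM. That step chose Peg3, so its separation is a description and supports nothing. Intervals of low-iron and sufficient-iron libraries overlapped, with low-iron values reaching 3.16 CPM and sufficient-iron values starting at 2.64 CPM.

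Set against the sufficient diet, high iron left Peg3 2.45-fold higher (log2 fold change 1.29 ± 0.21, SE), the difference that chose it. Among the members 1 of 8 tested, Peg3, was past the adjusted p threshold of 0.05 in edgeR's quasi-likelihood test, beside 0.215% of all tested genes. The choice of Peg3 fixed this count, and nothing is read from it. With one library left out at a time, the log2 fold change of Peg3 stayed between 1.14 and 1.45, and it stayed past the threshold without low-iron replicate 1. It was no longer past it without any one of low-iron replicates 5 and 9, sufficient-iron replicates 2, 6 and 10 and high-iron replicates 4, 8 and 12.

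Set against low iron, high iron left Peg3 4.58-fold higher (log2 fold change 2.19 ± 0.23). In this comparison 1 of 8 members, Peg3, was past the threshold, beside 0.507% of all tested genes. Because the high-iron libraries are those that chose Peg3, nothing is read from this count either. Its log2 fold change ran from 2.01 to 2.36 with one library left out at a time, and the call was lost without high-iron replicate 8. With low-iron replicate 1 and high-iron replicate 12, the libraries richest in Rn45s, both left out it was 2.21.

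Between the low-iron and the sufficient diet Peg3 had a log2 fold change of -0.90 ± 0.23 (SE). High-iron libraries are not compared here. The filter, scaling and dispersion behind the SE and p-values came from all 9 libraries, however, so they are not independent of the high-iron ones. Peg3 was lower in 3 of 3 low-iron mice than in any sufficient-iron mouse. It did not pass the test over all genes (edgeR quasi-likelihood adjusted p = 0.446, unadjusted p = 0.0027). In this comparison 0 of 8 members passed, and 0% of all tested genes did, while 1458 genes (11.2%) had an unadjusted p under 0.05. In DESeq2 105 genes passed and in limma-voom 0. The sufficient-iron libraries are shared with the comparison that chose Peg3. DESeq2 gave Peg3 no adjusted p here, and over the other alternatives its adjusted p ran from 0.284 to 0.835.

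In the test of all 3 diets together 1 of 8 members, Peg3, was past the threshold, beside 0.215% of all tested genes. That test contains the comparison that chose Peg3, so the count is again a description, and Peg3 was not past the threshold without high-iron replicate 4, 8 or 12. Levels that climbed from low through sufficient to high iron with no overlap at either step were found for 33 of 13020 genes, a share of 0.253%. Peg3 was 1 of these 33, which includes the step that chose it and is no support for its pattern. Of the other 7 tested members 0 had this order.

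Cell type markers were examined beside the Peg3 difference. Of 7 tested cholangiocyte markers, 7 had positive log2 fold changes between high and low iron (median 1.01, 0 past the test) and 6 between high and sufficient iron (median 0.18, 1 past the test). Their summed level was 53.6 to 84.7 CPM on high, 42.2 to 74.7 on sufficient and 30.3 to 43.4 CPM on low iron, with 0 of 7 listed markers at 0. Krt23, the marker that passed, made up 13.34 to 20.35 CPM of these sums on high, 1.726 to 1.968 on sufficient and 2.262 to 7.755 on low iron. It held 20.35 of 53.6 CPM in high-iron replicate 8 and 3.841 of 40.42 CPM in low-iron replicate 9, so without Krt23 these diets overlap. All 6 mesothelial markers had positive values in both comparisons with high iron (medians 1.17 against low and 0.68 against sufficient iron, 0 past the test). Their sums of 169 to 175 CPM on high, 125 to 226 on sufficient and 142 to 163 on low iron were mostly Krt8, a keratin that hepatocytes also express. Without Krt8 the other 5 summed to 5.15, 5.32 and 9.99 CPM on high, 1.93, 6.56 and 3.50 on sufficient and 1.48, 5.63 and 1.73 CPM on low iron, so the diets overlapped. Upk3b, a uroplakin gene of mesothelium, stood at 1.78 ± 0.473, 0.590 ± 0.498 and 0.659 ± 0.982 CPM on high, sufficient and low iron (SD, n = 3 each). Of 10 hepatocyte markers, 10 had negative values between high and low iron and 5 between high and sufficient iron (0 past the test), with sums of 54800 to 64800 CPM on high, 57100 to 76900 on sufficient and 72200 to 81100 on low iron. The part of these cell types in the Peg3 difference was not tested.

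Stellate cell and fibroblast markers summed to 136 to 235 CPM on high, 132 to 358 on sufficient and 128 to 174 on low iron. Endothelial markers summed to 257 to 369 CPM on high, 293 to 344 on sufficient and 200 to 320 on low iron. Kupffer cell markers summed to 223 to 276, 260 to 415 and 115 to 263 CPM in the same order. Between high and low iron 8 of 12, 7 of 12 and 9 of 9 tested markers of these lists were positive, with 0 past the test. Between high and sufficient iron 2 of 12, 6 of 12 and 0 of 9 were positive (medians -0.34, -0.06 and -0.46). Between low and sufficient iron 1 of 12, 3 of 12 and 0 of 9 were positive (medians -0.35, -0.22 and -0.64). In that comparison 7 of the 9 Kupffer cell markers had an unadjusted p under 0.05 (edgeR), beside 11.2% of all tested genes, with 0 past the test. Adipocyte markers (sums of 25.9 to 108 CPM over the 9 libraries, Plin1 and Lep at 0) and neuronal and glial markers (7.72 to 13.4 CPM, Nefl and Nefm at 0) had 3 of 6 and 5 of 5 positive between high and low iron, and 3 of 6 and 3 of 5 between high and sufficient iron. Lymphocyte markers (3.58 to 7.37 CPM) had 4 of 8 positive in each comparison. Skeletal muscle and pancreas markers had 1 tested gene each, with Ckm, Myh4 and Myl1, and 7 of 8 pancreas markers, at 0 reads. Over all 12 marker lists 1 of 78 tested genes rose and 1 fell between high and sufficient iron. They were the keratin gene Krt23 of the cholangiocyte list (3.21 ± 0.36, adjusted p = 0.0194) and Alas2 of the erythroid list (-1.06 ± 0.17, adjusted p = 0.0479, edgeR). Alas2, the erythroid enzyme of haem synthesis, was the 1 marker that passed between high and low iron (-1.58 ± 0.18, edgeR adjusted p = 0.0114), while Hba-a1, Hba-a2, Hbb-b1 and Hbb-b2 of its list had 0 reads. Krt23 did not pass without high-iron replicate 4 or 8 or sufficient-iron replicate 10 (adjusted p up to 0.154). Between high and sufficient iron Alas2 did not pass without any one of the 3 sufficient-iron or 3 high-iron libraries or low-iron replicate 9 (up to 0.228). Between high and low iron it did not pass without high-iron replicate 4 or 8 (up to 0.0761).

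Of the other paternally expressed members 4 were tested (Mest, Plagl1, Ndn and Igf2), and 0 of them passed in any comparison. Mest, an alpha/beta hydrolase gene and by length the most abundant member (1.46 CPM per kb of exon over all libraries, against 0.37 for Peg3), stood at 5.78 ± 1.17, 5.81 ± 0.723 and 5.66 ± 0.209 CPM on low, sufficient and high iron (SD, n = 3 each). By library Mest was at 4.45, 6.62 and 6.27 CPM on low, 5.65, 6.60 and 5.19 on sufficient and 5.42, 5.79 and 5.77 CPM on high iron. The diets overlapped in full, and the lowest value came from low-iron replicate 1. The log2 fold change of Mest was -0.04 ± 0.17 between high and sufficient iron, so 2 SE on either side reached from -0.39 to 0.30.

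Plagl1 encodes a zinc finger transcription factor known to act on other genes of the network. It stood at 1.87, 1.02 and 1.23 CPM in low-iron replicates 1, 5 and 9, at 1.13, 3.80 and 1.41 CPM in sufficient-iron replicates 2, 6 and 10, and at 1.71, 0.912 and 2.24 CPM in high-iron replicates 4, 8 and 12. Sufficient-iron replicate 6 was the highest of the 9 libraries, and all 3 diets overlapped. Its log2 fold change was -0.43 ± 0.48 between high and sufficient iron, and 0.31 without sufficient-iron replicate 6.

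Ndn, the gene of the growth-restraining protein necdin, lay between 0.283 and 0.748 CPM in the 9 libraries, with both ends in the high-iron diet. Igf2, a fetal growth factor gene, had 2 to 24 reads per library and means of 0.340 ± 0.165, 0.361 ± 0.193 and 0.321 ± 0.087 CPM on low, sufficient and high iron (SD, n = 3 each). Dlk1, a membrane protein gene of progenitor cells, had 8 reads in all 9 libraries together and 0 in 4 of them, which allows up to 0.234 CPM in low-iron replicate 1 and 0.069 CPM in sufficient-iron replicate 6. Diet differences of Dlk1 were not detectable at this depth.

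Among the maternally expressed members, Grb10, whose product binds and restrains the insulin and IGF1 receptors, stood at 2.42, 2.96 and 2.64 CPM on low iron (replicates 1, 5 and 9). It stood at 2.77, 4.26 and 3.31 CPM on sufficient iron (replicates 2, 6 and 10) and at 3.44, 3.05 and 3.58 CPM on high iron (replicates 4, 8 and 12). All 3 high-iron mice lay above all 3 low-iron mice, as for 7.59% of tested genes, while the sufficient-iron mice overlapped both. Its log2 fold change between high and low iron was 0.31 ± 0.20 and did not pass the test (edgeR adjusted p = 0.688).

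Cdkn1c, which encodes an inhibitor of cyclin-dependent kinases, had means of 0.833 ± 0.103, 0.985 ± 0.365 and 0.859 ± 0.242 CPM on low, sufficient and high iron (SD, n = 3 each). The non-coding RNA Meg3, transcribed from the same imprinted cluster as Dlk1, had means of 0.474 ± 0.212, 0.293 ± 0.141 and 0.374 ± 0.172 CPM in the same order. H19, the non-coding RNA beside Igf2, had 0 to 31 reads per library, with 31 of its 72 reads in sufficient-iron replicate 6. In low-iron replicate 5 H19 had 0 reads, which allows up to 0.11 CPM. For each of these genes the 3 diets overlapped.

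Over the 7 tested members other than Peg3, 1 had a positive and 6 had a negative log2 fold change between high and sufficient iron, with a median of -0.20, beside -0.01 over all genes. Between low and sufficient iron 3 were positive and 4 negative (median -0.24), and between high and low iron 3 and 4 (median -0.00). The lowest adjusted p among them was 0.742, 0.481 and 0.688 in these comparisons (edgeR), and 0 of 7 had an unadjusted p under 0.05 in any of them. Of all tested genes 9.28%, 11.2% and 9.65% did, and 7 genes are too few to tell 0 from those shares. SE ran from 0.17 for Mest to 0.54 for Igf2 and Meg3, so the size of change that could have been seen differed among members. Between high and low iron 2 SE on either side reached from -0.09 to 0.72 for Grb10, from -0.40 to 0.30 for Mest and from -0.76 to 1.28 for Plagl1.

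**Figure D2:**
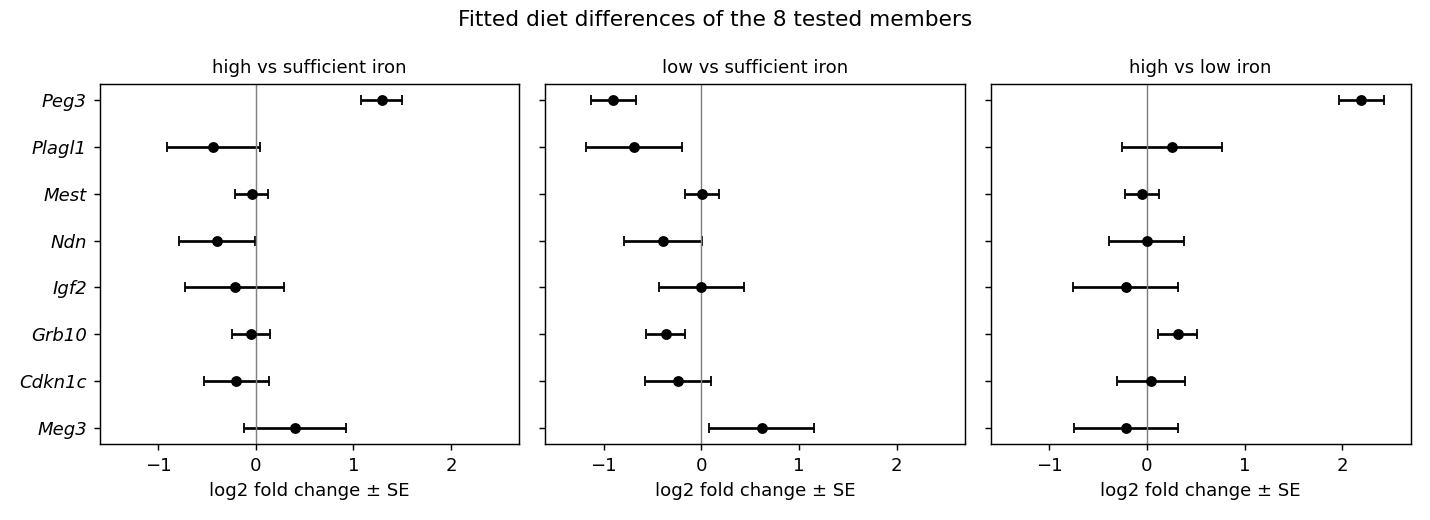
Fitted log2 fold changes (x axis, points) with SE (bars) of the 8 tested members (y axis) in the 3 diet comparisons. Peg3 stands at 1.29, -0.90 and 2.19, and the other 7 members lie between -0.69 and 0.62.

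The members were also set beside each other library by library. Across the 9 libraries, the correlation of log2 CPM with Peg3 was 0.56 for Grb10, 0.13 for Plagl1, -0.01 for Mest, -0.03 for Igf2, -0.08 for Cdkn1c and Meg3, and -0.12 for Ndn (Pearson r). Spearman's rho was 0.75 for Grb10 and lay between -0.25 (Cdkn1c) and 0.08 (Plagl1) for the other 6. After removal of diet means these 7 values ran from -0.33 to 0.39. The 21 pairs among the others had a median r of 0.37 after removal of diet means, from -0.855 for Meg3 with Cdkn1c to 0.85 for Igf2 with Mest. All 6 pairs with Meg3 were negative and 14 of the other 15 positive. These are descriptions over 9 libraries that share diets and differ in depth. Sufficient-iron replicate 6, the deepest library, had the highest level of 4 of the 7 (Igf2, Grb10, Cdkn1c and Plagl1) and the lowest of Meg3. It also had the highest sum of stellate cell markers (358 CPM, against 128 to 235 in the other 8) and of adipocyte markers (108, against 25.9 to 56.4). The part of these cells in the levels of the members was not tested.

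**Figure D3:**
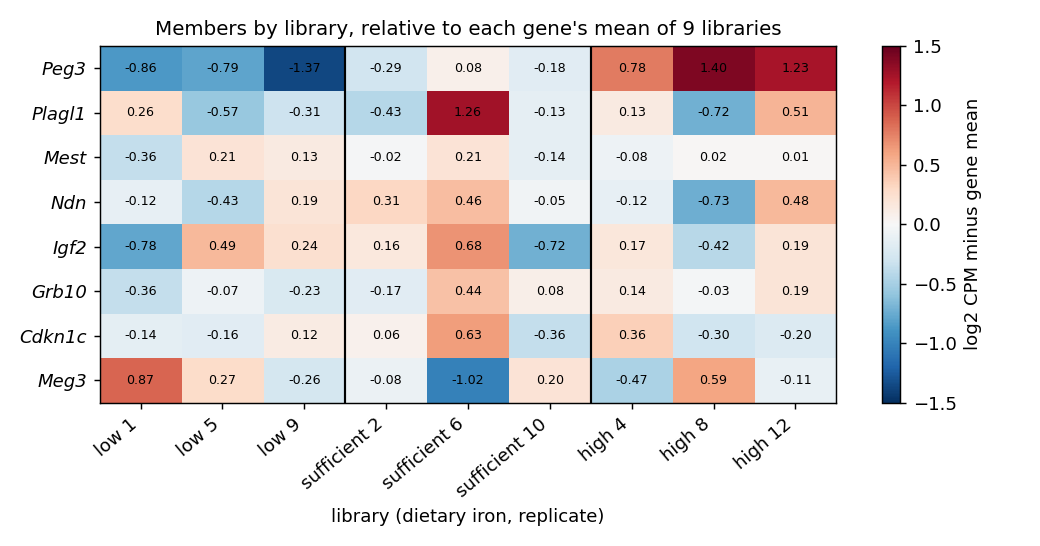
Log2 CPM of each tested member (rows) in each library (columns, grouped by diet) minus that gene's mean over 9 libraries, as colour and number. Peg3 runs from -1.37 in low-iron replicate 9 to 1.40 in high-iron replicate 8, and sufficient-iron replicate 6 has the highest value of 4 of the other 7 members and the lowest of Meg3.

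A wider list of 59 imprinted genes outside the 10 members was examined, of which 56 were in the table and 31 were tested. Of these 31, 0 passed the edgeR test in any of the 3 comparisons (0.215%, 0% and 0.507% of all genes did). An unadjusted p under 0.05 was found for 3, 4 and 4 of the 31, beside 9.28%, 11.2% and 9.65% of all tested genes, so near those shares. Between high and low iron 16 had positive and 15 negative values (median 0.00), from -0.54 for Slc22a3 to 0.61 for Osbpl5. Of 12 genes listed as paternally expressed 7 were positive and 5 negative in this comparison, and of 19 listed as maternally expressed 9 and 10. Which copy these genes express in adult liver was not measured, so the lists may hold genes that are not imprinted there. Peg10, a retrotransposon-derived paternally expressed gene, stood at 1.49 ± 0.117, 2.75 ± 1.12 and 2.05 ± 0.574 CPM on low, sufficient and high iron (SD, n = 3 each). Its log2 fold change of -0.90 ± 0.32 between low and sufficient iron was close to that of Peg3 and had an adjusted p of 0.446 (edgeR). On sufficient iron Peg10 was at 2.26 (replicate 2), 4.03 (replicate 6) and 1.96 CPM (replicate 10). Igf2r, the maternally expressed receptor gene that clears IGF2, had a log2 fold change of -0.27 ± 0.10 between high and low iron (adjusted p = 0.391). Slc22a18 (-0.35, adjusted p = 0.373) and the cation transporter gene Slc22a3 (-0.54, adjusted p = 0.266) did not pass either.

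**Figure D4:**
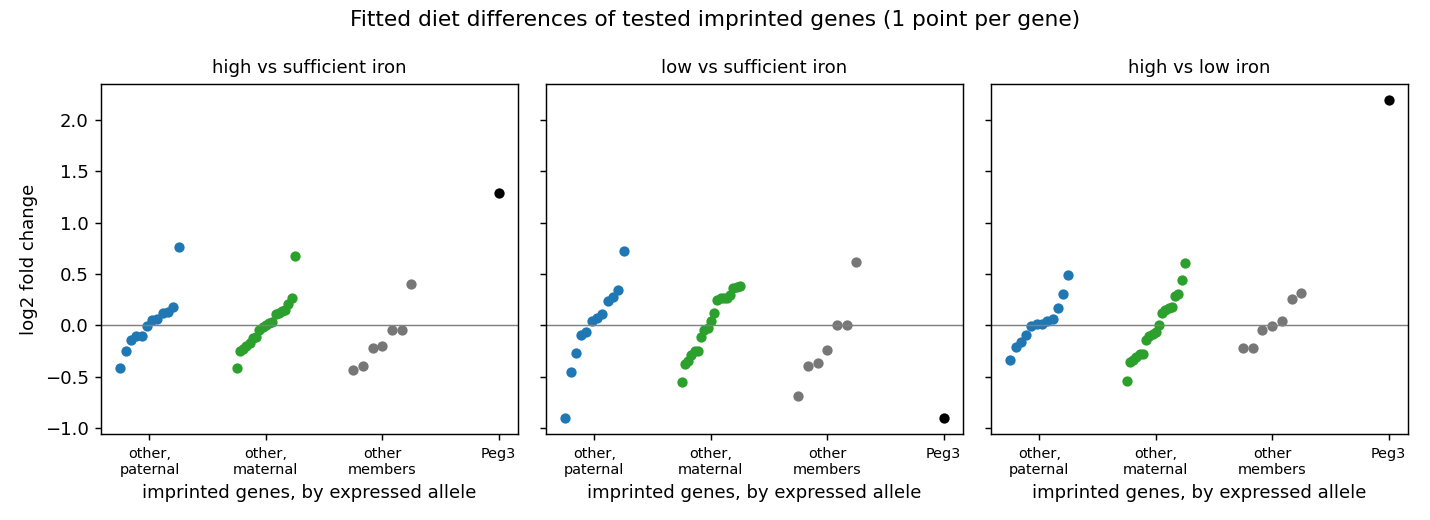
Log2 fold changes (y axis, 1 point per gene) of tested imprinted genes in the 3 diet comparisons: 12 other genes listed as paternally expressed, 19 others listed as maternally expressed, 7 other members and Peg3. The expressed copy was not measured in these livers. In both comparisons with high iron Peg3, at 1.29 and 2.19, lies above every other point, the highest of which are Mkrn3 at 0.77 and Osbpl5 at 0.61. Peg3 was picked on the high-iron libraries, so its place there is a description. Between low and sufficient iron Peg3 and Peg10 both stand at -0.90.

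Genes of insulin-like growth factor signalling, in which Igf2, Igf2r and Grb10 take part, were described from a list of 17 tested genes. Between high and low iron 1 fell, 0 rose and 8 had positive values (median -0.05). The gene that fell was Igfals, which encodes the acid-labile subunit that holds IGF in the circulation. It stood at 60.9 ± 6.28, 41.9 ± 7.94 and 27.2 ± 3.04 CPM on low, sufficient and high iron (SD, n = 3 each), a log2 fold change of -1.16 ± 0.15 (edgeR adjusted p = 0.0142). Without high-iron replicate 4, 8 or 12, or low-iron replicate 9, Igfals did not pass (adjusted p up to 0.0855), at log2 fold changes of -1.25 to -1.08. Igf1, the main circulating growth factor of the family, stood at 500.4 ± 78.8, 398 ± 10.8 and 327 ± 19.5 CPM (-0.61 ± 0.13, adjusted p = 0.072). Irs2, an insulin receptor substrate gene, had 0.61 ± 0.15 (adjusted p = 0.133). Between high and sufficient iron 0 of 17 passed, and the binding protein gene Igfbp2 stood at 267 ± 78.4 against 135 ± 15.1 CPM (0.98 ± 0.20, adjusted p = 0.107). Between low and sufficient iron 0 of 17 passed, with Igf2bp2, an RNA-binding protein gene named for Igf2, at -0.71 ± 0.29 (adjusted p = 0.446).

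Which genes followed Peg3 most closely was described by Pearson r of log2 CPM over the 9 libraries, among 11520 other tested genes that averaged 1 CPM or more. The median r was -0.01 and 48.6% were above 0. The highest values among named genes were 0.94 for Nrp2 (a neuropilin receptor), 0.93 for Ptp4a3 (a phosphatase), 0.92 for Bag2 (a co-chaperone), 0.92 for Dact1 (a modulator of Wnt signalling) and 0.92 for Cuedc1. The lowest were -0.97 for Igfals, -0.97 for Car3 (a carbonic anhydrase abundant in liver) and -0.96 for Prlr (the prolactin receptor). Grb10 ranked 807, Plagl1 4233 and Mest 5698 of the 11520. Nrp2 stood at 15.8, 18.3 and 17.4 CPM on low and 21.0, 23.6 and 22.2 CPM on sufficient iron. On high iron it stood at 32.9, 29.3 and 34.1 CPM. The diets did not overlap, as in this order for 33 of 13020 tested genes (0.253%). Nrp2 was chosen for its likeness to Peg3, which separates the diets, so this order comes with the choice. The span of Nrp2 between diets was narrower than that of Peg3, with a log2 fold change of 0.90 ± 0.11 between high and low iron.

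Within diets the genes of highest r were less close to Peg3. After removal of diet means r with Peg3 was -0.06 for Nrp2, 0.25 for Ptp4a3, -0.05 for Bag2, 0.22 for Dact1 and 0.50 for Cuedc1. For the genes that ran opposite it was -0.74 for Igfals, -0.80 for Car3 and -0.80 for Prlr. Both sets were chosen as extremes of r over these same 9 libraries. Their values within diets depend on that choice and are a description only. How many of all genes reach such values within diets was not counted. Car3 stood at 2821 ± 239, 1747 ± 309 and 1187 ± 93.4 CPM on low, sufficient and high iron (SD, n = 3 each), and its order over the 9 libraries was the exact reverse of that of Peg3 (Spearman rho -1). Prlr stood at 92.5 ± 19.3, 74.4 ± 11.4 and 34.7 ± 4.86 CPM. With one library left out, 0 to 3 of the 5 genes with the highest r were again among the 5, and 2 or 3 of the 3 with the lowest r were again among the 3. Igfals and Car3 were in that set each time.

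**Figure D5:**
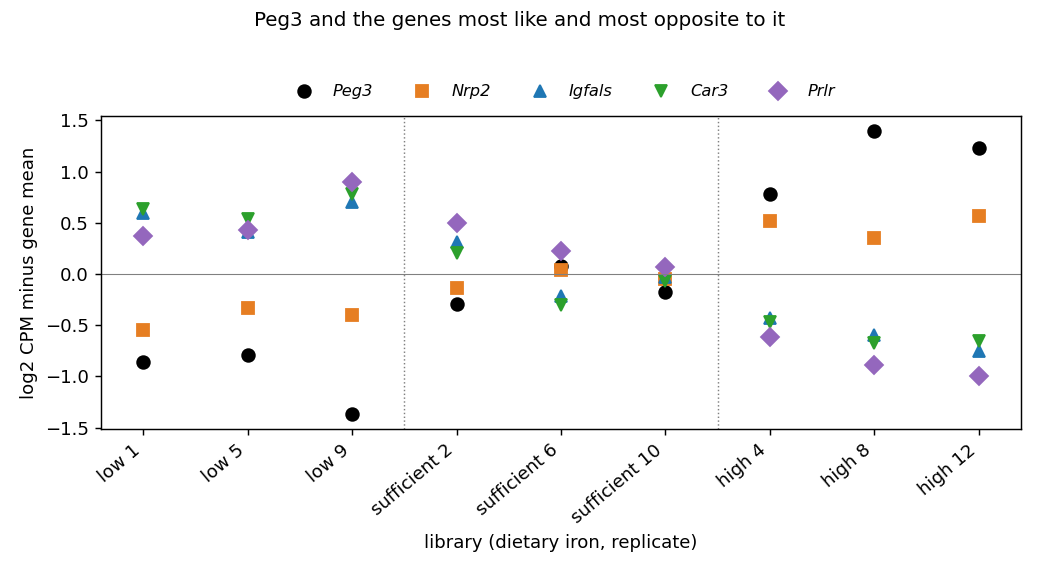
Log2 CPM minus the gene's mean over 9 libraries (y axis) in each library (x axis, grouped by diet) for Peg3, for Nrp2, which had the highest r with it among named genes, and for Igfals, Car3 and Prlr, which had the lowest. Peg3 and Nrp2 are below their mean in every low-iron library and above it in every high-iron library, and the other 3 genes the reverse. The genes beside Peg3 were picked by their r with it, so this order comes with the choice.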

How the data were processed

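Values are the raw counts of reads per gene symbol that the authors deposited, 1 table per library, with 5 category entries that were left out of library sizes and tests. FastQC and the builds mm10 and mm9 are named, with no role, per the submitters' processing notes. No source used here gives the aligner, the counter or the strand setting. Reads aligned to several places or ambiguous between genes were not counted to a gene, so overlapping genes are uncertain.

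The analysis ran in edgeR 4.0.16 (R 4.3.3) with filterByExpr, TMM scaling and a robust quasi-likelihood fit of diet to all 9 libraries, F-tests, and Benjamini-Hochberg adjustment over 13020 genes with 0.05 as threshold. Each SE is the fold change divided by the root of its F statistic, and log2 CPM used a prior count of 2. The fit was tested on simulated data. All replicates of a diet differed beyond counting noise. Each library is 1 mouse, per the labels, and p-values measure the spread between these mice.

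Alternatives were DESeq2 1.42.0, limma-voom (limma 3.58.1) with and without quality weights, other scalings and filters, the 6 compared libraries alone, Rn45s and Lars2 left out, and libraries left out. The members, the 5 gene lists of pathways and 12 lists of cell type markers were chosen with earlier results of these data known. All members were named, with, per pathway list, the genes past the threshold and the 3 lowest p-values per comparison, of which a part is printed. Per marker list the rule takes the 2 lowest p-values, and for likeness to Peg3 the 5 highest and 3 lowest r without predicted gene models. Exon length came from GENCODE M21 (union of exons) and promoter windows from RefSeq, which had them for 8 of the 10 members.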

Additional observations from a re-analysis of the deposited data

How the results depend on the processing

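Depth limits Igf2, Meg3, H19, Dlk1 and Ndn, with at most 32 reads in any library. No paired analysis was possible because the diets share none of the replicate numbers in the titles and the labels state no pairing. Without the filter, H19 and Dlk1 had log2 fold changes of -0.68 ± 0.90 and 1.97 ± 1.35 between high and sufficient iron and passed no comparison. The count of members past the threshold in edgeR was 1 (Peg3) between high and sufficient iron, 0 with a filter at 1 CPM in 3 libraries or with both Rn45s-rich libraries left out, and 0 to 1 with one library left out. It was 0 to 1 between high and low iron and 0 to 1 in the test of all diets with one library left out, and 0 in the latter without both Rn45s-rich libraries. Of the 5 genes most like Peg3, 0 to 3 were among the 5 again with one library left out. The cause was not tested.

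Over all genes, 28 were past the threshold between high and sufficient iron, 218 with DESeq2, 92 with quality weights, 45 without a filter and 17 without both Rn45s-rich libraries. The counts were 66, 365 and 378 between high and low iron, and 31 without those libraries. They were 0, 105 and 2 between low and sufficient iron, and 1 without those libraries. In the test of all diets they were 28, 413 and 230, with 52 unfiltered and 15 without those libraries. With one library left out they ran from 0 to 56, 0 to 112, 0 to 1 and 0 to 68.

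The log2 fold change of Peg3 kept its sign in all 57 alternative values. The other members gave 389 alternative values, with 0 past the threshold where an adjusted p was given (lowest adjusted p = 0.403) and 53 of the opposite sign, all of genes whose value lay within 2 SE of 0. Between high and sufficient iron, quality weights gave 0.26 for Igf2, -0.025 for Meg3, 0.066 for Grb10, 0.14 for Cdkn1c, 0.031 for Plagl1 and 0.00025 for Mest. Leaving out one library gave -0.57 to 0.29 for Igf2, -0.084 to 0.77 for Meg3, -0.18 to 0.13 for Grb10, -0.47 to 0.15 for Cdkn1c, -0.72 to 0.31 for Plagl1 and -0.13 to 0.062 for Mest. Between low and sufficient iron, Igf2 was -0.016 with upper-quartile scaling, -0.0056 unfiltered, -0.018 in DESeq2 and -0.015 with 6 libraries. Mest was -0.0089 with upper-quartile scaling, -0.011 with the 1 CPM filter and -0.0077 with 6 libraries, and Cdkn1c 0.068 with quality weights. Leaving out one library gave -0.36 to 0.51 for Igf2, -0.48 to 0.10 for Cdkn1c, -0.97 to 0.050 for Plagl1 and -0.10 to 0.13 for Mest. Between high and low iron, Meg3 was 0.15 without both Rn45s-rich libraries, and Ndn was 0.020 with upper-quartile scaling, 0.0036 in DESeq2 and 0.0019 without Rn45s and Lars2. Leaving out one library gave -0.44 to 0.062 for Igf2, -0.70 to 0.088 for Meg3, -0.23 to 0.20 for Cdkn1c, -0.021 to 0.56 for Plagl1, -0.18 to 0.057 for Mest and -0.35 to 0.31 for Ndn.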

Other observations

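Genes that maintain imprints were described from a list of 17, of which 13 were tested and 0 passed the edgeR test in any of the 3 comparisons. Uhrf1, which guides the maintenance methylase to DNA and is active in dividing cells, stood at 0.558 ± 0.159, 1.43 ± 0.779 and 0.553 ± 0.192 CPM on low, sufficient and high iron (SD, n = 3 each). Its log2 fold change was -1.41 ± 0.44 between high and sufficient iron (adjusted p = 0.356) and -1.43 ± 0.45 between low and sufficient iron (adjusted p = 0.446). Dnmt1, the maintenance methylase gene, had -0.43 ± 0.17 between high and sufficient iron (adjusted p = 0.501). Dnmt3a, a de novo methylase gene, had -0.33 ± 0.13 between low and sufficient iron (adjusted p = 0.446). Yy1 stood at 33.2 ± 2.40, 34.1 ± 1.95 and 31.2 ± 2.97 CPM.

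Of 12 genes of fetal liver and their repressors 8 were tested and 0 passed in any comparison. Gpc3, a glypican gene that is silenced in liver after birth, stood at 0.869, 1.04 and 1.87 CPM on high iron, at 0.109, 1.04 and 0.69 CPM on sufficient and at 0.312, 0.768 and 0.282 CPM on low iron. Its log2 fold change was 1.37 ± 0.65 between high and low iron (adjusted p = 0.548). In each diet the library with the highest Gpc3 also had the highest mesothelial sum without Krt8. These sums were 9.99 CPM in high-iron replicate 12, 6.56 in sufficient-iron replicate 6 and 5.63 in low-iron replicate 5. The part of mesothelial cells in the Gpc3 values was not tested. Zhx2, a repressor of fetal liver genes that include H19, had -0.18 ± 0.13 between high and low iron (adjusted p = 0.719). Lin28b had 0 reads in all libraries.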
